A study of Mus musculus with 3 samples.

Results

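Interferon-stimulated genes are the genes that cells switch on when an interferon binds its receptor, and 37 of them were described here by cell type in mouse lung. They were the rows of the count matrices whose gene symbol equalled 1 of 37 chosen symbols, and all 37 were among the 27998 genes of the matrices. The 37 comprised 30 genes known chiefly as type I interferon targets and 7 genes known chiefly as interferon-gamma targets. The 30 type I-like genes were divided by their general abundance into 24 low-basal genes, which most resting cells barely express, and 6 high-basal genes (Isg20, Bst2, Ifi27l2a, Ifitm3, Ly6e and Sp100), which several resting cell types express constitutively. The division follows textbook knowledge and not the levels in these data, and both groups respond in part to both kinds of interferon.

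Type I interferons bind a receptor made of IFNAR1 and IFNAR2 and activate a complex that includes STAT2 and IRF9 and binds interferon-stimulated response elements in promoters. Interferon-gamma binds IFNGR1 and IFNGR2, and its signal induces IRF1 through gamma-activated sites. In lung the targets include sensors of foreign RNA, proteins that block viral entry or replication, and GTPases that attack the vacuoles of intracellular pathogens.

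Lung cells were profiled by droplet-based single-cell RNA sequencing of transcript 3' ends in 3 libraries, 1 per group. FLASH was lung after thoracic irradiation with 17 Gy of electrons delivered in FLASH mode, a delivery at ultra-high dose rate. CONV was lung after the same dose in conventional mode, and control was lung that had not been irradiated. Mice of all 3 groups were C57BL/6 females aged 10 to 12 weeks, and the irradiated ones received 4.5 MeV electrons under isoflurane. The suspensions came from enzymatic dissociation, filtering and red blood cell lysis, with no sort named. How many mice went into a library and how long after irradiation lungs were taken are not given in the sources used here. Each group was a single library, so no difference has a replicate check or a test, and every interval covers counting error only.

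The deposited counts were unique molecular identifiers (UMIs), 1 per captured transcript, and 6341 of 6662 barcodes were kept: 2252 in FLASH, 2385 in CONV and 1704 in control. The kept cells held 5196300 UMIs in FLASH, 7096206 in CONV and 6855048 in control, with medians of 1795.5, 2349 and 2958.5 UMIs per cell in the same order of libraries, so FLASH cells were the shallowest. Among kept cells, 18 barcodes occurred in more than 1 library. Clustering without the 37 genes gave 27 clusters, of which 2 stayed unnamed and the others fell into 24 classes. A class name stands for cells that resemble a type by its markers. The class called Icos/Cxcr6 here met a list for innate and effector lymphocytes, and its leading genes included Icos, Cxcr6, Tnfrsf4, Il2ra and Ikzf2. The dendritic class met a list of conventional dendritic markers, and its leading genes included Ccl17, Ccl22, Cd209a and the plasmacytoid marker Siglech. The 11 classes with at least 30 cells in each library were compared. Their levels are given as CPM, the UMIs of a gene scaled to 1000000 UMIs of the class in that library, and a level of 0 allowed up to 1.90 to 37.4 CPM, depending on the class and library, taking 3 UMIs as the limit. Since UMIs were summed over cells, fewer expressing cells and less RNA per cell cannot be told apart in a class level.

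Promoters of 6 members are shown because their letters carry the element through which interferons act, in the order of low-basal type I-like and then gamma-like genes. Each runs from 250 bases before to 50 bases after the RefSeq start (GRCm38.p6), 300 bases in all, read 5′ to 3′ on the gene's strand. Capitals mark GAAANNGAAA, the core repeat of the interferon-stimulated response element, or its reverse complement TTTCNNTTTC.
Isg15: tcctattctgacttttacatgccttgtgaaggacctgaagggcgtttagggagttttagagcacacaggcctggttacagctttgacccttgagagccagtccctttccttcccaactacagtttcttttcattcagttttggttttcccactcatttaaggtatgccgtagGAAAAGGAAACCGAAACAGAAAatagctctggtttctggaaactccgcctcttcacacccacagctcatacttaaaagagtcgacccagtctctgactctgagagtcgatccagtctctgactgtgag
Ifit1: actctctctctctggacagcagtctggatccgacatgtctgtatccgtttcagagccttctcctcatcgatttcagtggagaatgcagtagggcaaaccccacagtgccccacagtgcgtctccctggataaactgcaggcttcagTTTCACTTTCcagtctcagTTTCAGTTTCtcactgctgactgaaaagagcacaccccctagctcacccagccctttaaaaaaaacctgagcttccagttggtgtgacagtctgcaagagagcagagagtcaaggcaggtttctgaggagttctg
Ifit3: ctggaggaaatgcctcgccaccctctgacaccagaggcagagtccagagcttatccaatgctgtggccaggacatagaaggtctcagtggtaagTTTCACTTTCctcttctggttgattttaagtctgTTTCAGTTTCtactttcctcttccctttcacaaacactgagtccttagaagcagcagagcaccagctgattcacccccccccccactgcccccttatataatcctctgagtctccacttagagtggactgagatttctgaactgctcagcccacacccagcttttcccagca
Gbp2: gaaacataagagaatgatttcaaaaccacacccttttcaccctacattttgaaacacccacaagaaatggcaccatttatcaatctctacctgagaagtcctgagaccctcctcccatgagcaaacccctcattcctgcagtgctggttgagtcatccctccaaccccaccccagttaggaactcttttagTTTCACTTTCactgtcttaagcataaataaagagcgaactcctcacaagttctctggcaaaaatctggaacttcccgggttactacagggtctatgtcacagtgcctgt
Igtp: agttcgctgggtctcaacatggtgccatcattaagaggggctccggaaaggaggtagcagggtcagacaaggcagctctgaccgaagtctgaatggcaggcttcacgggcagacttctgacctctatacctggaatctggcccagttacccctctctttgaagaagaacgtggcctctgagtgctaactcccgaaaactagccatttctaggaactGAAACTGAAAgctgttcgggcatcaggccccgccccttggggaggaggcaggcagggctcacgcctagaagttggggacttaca
Irgm1: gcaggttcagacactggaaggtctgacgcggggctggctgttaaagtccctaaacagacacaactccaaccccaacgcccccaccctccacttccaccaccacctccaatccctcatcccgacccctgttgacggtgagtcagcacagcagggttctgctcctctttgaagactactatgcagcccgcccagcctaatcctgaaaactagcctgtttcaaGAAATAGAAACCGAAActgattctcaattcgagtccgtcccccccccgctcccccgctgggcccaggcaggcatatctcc

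Isg15, a ubiquitin-like protein joined to other proteins, lay at chr4:156200769-156201068, minus strand, and its matches began at -78, -72 and -66 from the start and overlapped one another. Ifit1, which binds foreign RNA, lay at chr19:34640639-34640938, plus strand, with matches at -104 and -85. Its neighbour and partner Ifit3 lay at chr19:34583279-34583578, plus strand, with matches at -156 and -122. Gbp2, a large GTPase that coats pathogen vacuoles, lay at chr3:142620413-142620712, plus strand, with a match at -59. The immunity-related GTPase Igtp lay at chr11:58199306-58199605, plus strand, with a match at -34, and its regulator Irgm1 lay at chr11:48871371-48871670, minus strand, with matches at -30 and -24. The table of promoters held 27 of the 37 members, and 17 of those 27 (63%) had a match on either strand, against 3.99% of all 27025 genes with a promoter there. By group, matches were found in 10 of 17 low-basal, 2 of 4 high-basal and 5 of 6 gamma-like genes. The letters TTCNNNGAA of a gamma-activated site were found in 8 of the 27 (29.6%), among them 2 of 6 gamma-like genes, against 9.55% of all genes. A match is a run of letters in this window and not a shown binding site.

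Summed over the 24 low-basal genes, control was the highest library in 9 of the 11 compared classes, the exceptions being AT2 cells and alveolar macrophages. Vessel endothelium had the highest low-basal and gamma-like sums of the compared classes in all 3 libraries, although in CONV its low-basal sum was close to that of non-classical monocytes. The 24 low-basal genes together reached 1256 CPM in FLASH, 641 CPM in CONV and 1544 CPM in control in vessel endothelium. This was 0.814 (95% interval 0.673 to 0.981) of control in FLASH and 0.415 (95% interval 0.323 to 0.529) of control in CONV, so CONV was the low library, and FLASH over CONV was 1.96 (95% interval 1.51 to 2.56). Under a mitochondrial limit of 5% the low-basal sum was 0.870 (95% interval 0.717 to 1.05) of control in FLASH, no longer clear of 1, and without doublet removal FLASH over CONV was 1.48 (95% interval 1.17 to 1.88). Of the 180 low-basal UMIs of the FLASH endothelium, 31 came from 1 cell and 61 from its top 3 cells. The 7 gamma-like genes summed to 398 CPM in FLASH, 499.7 CPM in CONV and 987 CPM in control in the same class. Here both irradiated libraries were low, at 0.403 (95% interval 0.295 to 0.544) of control in FLASH and 0.506 (95% interval 0.378 to 0.671) in CONV. The low-basal and gamma-like sums of endothelium therefore had different orders: FLASH stood above CONV for the low-basal genes, whereas for the gamma-like genes the interval of FLASH over CONV, 0.549 to 1.15, included 1.

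In lymphocytes both irradiated libraries stood below control. T cells had 360.0 CPM in FLASH, 334 CPM in CONV and 641 CPM in control of the low-basal sum, 0.562 (95% interval 0.455 to 0.691) of control in FLASH and 0.521 (95% interval 0.431 to 0.629) in CONV. B cells had 298 CPM in FLASH, 312 CPM in CONV and 590.0 CPM in control. The Icos/Cxcr6 class had 349 CPM in FLASH, 377 CPM in CONV and 592 CPM in control, and NK cells had 426 CPM in FLASH, 453 CPM in CONV and 575 CPM in control. In T and B cells both irradiated libraries lay below control beyond counting error, while for NK cells both intervals of the ratio to control reached 1. The Icos/Cxcr6 sum was 0.590 (95% interval 0.423 to 0.806) of control in FLASH and 0.638 (95% interval 0.499 to 0.809) in CONV, but its size and direction depended on the clustering: at a Leiden resolution of 0.6, a coarser clustering, it was 0.721 (95% interval 0.363 to 1.35) in FLASH and 1.16 (95% interval 0.720 to 1.86) in CONV. In that class the 7 thymocyte markers summed to 15.2 CPM in FLASH, 29.4 CPM in CONV and 697 CPM in control, and their part in the sum was not tested. Myeloid cells had 616 CPM in FLASH, 626 CPM in CONV and 898 CPM in control as non-classical monocytes and 526 CPM in FLASH, 512 CPM in CONV and 871 CPM in control as the dendritic class. Alveolar macrophages had 233 CPM in FLASH, 268 CPM in CONV and 233 CPM in control with both intervals of the ratio to control including 1. Among epithelial cells, AT2 cells, the surfactant-making cells, had the lowest low-basal sums in every library, at 90.8 CPM in FLASH, 105 CPM in CONV and 98.5 CPM in control. Club cells, the secretory cells of the airway, had 101 CPM in FLASH, 115 CPM in CONV and 206 CPM in control, and 34 of the 126 control UMIs came from 1 cell. Alveolar fibroblasts had 415 CPM in FLASH, 382 CPM in CONV and 565 CPM in control. FLASH and CONV differed by less than counting error in the low-basal sum of all these 10 classes, where the interval of FLASH over CONV included 1.

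Among the compared classes the gamma-like sums were next highest in NK, T and Icos/Cxcr6 cells and in fibroblasts. NK cells had 259.6 CPM in FLASH, 259.8 CPM in CONV and 199 CPM in control and T cells 211 CPM in FLASH, 251 CPM in CONV and 273 CPM in control, with intervals of both ratios to control including 1. Alveolar fibroblasts had 171 CPM in FLASH, 165 CPM in CONV and 233 CPM in control, with a ratio of 0.733 (95% interval 0.499 to 1.07) in FLASH. Non-classical monocytes had 1, 7 and 9 gamma-like UMIs in FLASH, CONV and control, and their ratio to control in FLASH was 0.0596 (95% interval 0.00136 to 0.430) and, at a Leiden resolution of 0.6, 0.534 (95% interval 0.338 to 0.849). Mesothelium, the lining of the lung surface, had too few cells to be compared (17, 19 and 16 in FLASH, CONV and control), but its gamma-like sum stood at 681 CPM in FLASH (28 UMIs), 465 CPM in CONV (38 UMIs) and 519 CPM in control (43 UMIs), in FLASH above that of vessel endothelium. Club cells had 0 CPM in FLASH (0 UMIs), which allowed up to 6.20 CPM, 12.6 CPM in CONV (8 UMIs) and 44.1 CPM in control (27 UMIs). The high-basal sums were 6709 CPM in FLASH, 6547 CPM in CONV and 8432 CPM in control in non-classical monocytes, 6900.4 CPM in FLASH, 5884 CPM in CONV and 7471 CPM in control in vessel endothelium and 3217 CPM in FLASH, 3010.1 CPM in CONV and 4048 CPM in control in B cells. Control was the lowest library of the high-basal sum in alveolar macrophages, with 561 CPM in FLASH, 547 CPM in CONV and 463 CPM in control, in the dendritic class, with 3219 CPM in FLASH, 3347 CPM in CONV and 2862 CPM in control, and in the Icos/Cxcr6 class, with 2504 CPM in FLASH, 2906 CPM in CONV and 2033 CPM in control. Of these ratios to control, the intervals lay above 1 for the dendritic class in CONV, at 1.17 (95% interval 1.06 to 1.29), and for the Icos/Cxcr6 class, at 1.23 (95% interval 1.08 to 1.39) in FLASH and 1.43 (95% interval 1.30 to 1.57) in CONV. The Icos/Cxcr6 ratios turned to 0.827 (95% interval 0.709 to 0.962) in FLASH and 0.9355 (95% interval 0.817 to 1.07) in CONV at a Leiden resolution of 1.6, a finer clustering, and to 0.971 (95% interval 0.853 to 1.10) in FLASH at a mitochondrial limit of 5%.

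**Figure D1:**
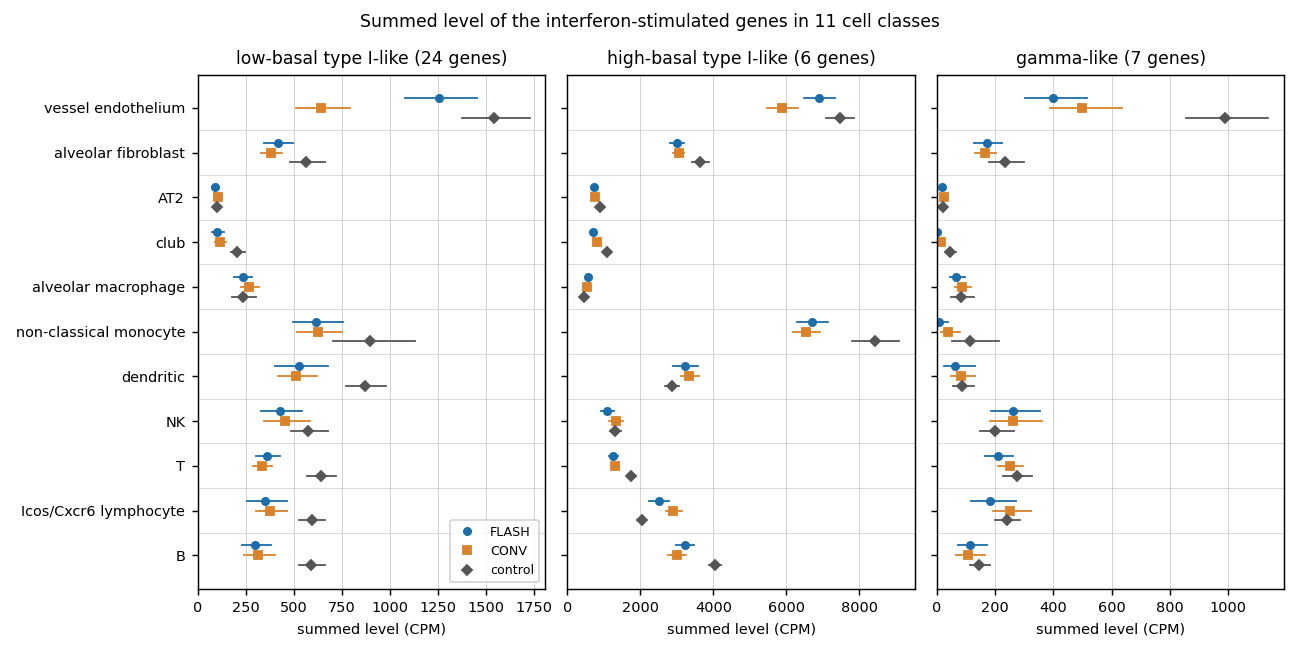
Summed level (CPM) of the 24 low-basal, 6 high-basal and 7 gamma-like genes in 11 cell classes. Points are single libraries (FLASH, CONV, control) and lines are exact 95% Poisson intervals for counting error. In vessel endothelium CONV lies below both other libraries in the low-basal panel, and control lies above both irradiated libraries in the gamma-like panel.

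Other markers of the endothelial class also differed between libraries. Its own 8 vessel markers, which all had UMIs in every library, summed to 8805 CPM in FLASH, 8129 CPM in CONV and 13747 CPM in control. The 5 lymphatic markers summed to 1786 CPM in FLASH, 2304 CPM in CONV and 1215 CPM in control, with 3, 2 and 3 of them detected in FLASH, CONV and control. The 8 smooth muscle markers summed to 300.02 CPM in FLASH, 485 CPM in CONV and 111 CPM in control, and the 5 markers of dividing cells were at 0 CPM in FLASH, 0 CPM in CONV and 233 CPM in control. Marker levels of other cell types thus differed between the libraries of the class, and their part in its values was not tested.

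Each member was placed by the compared class in which its level, averaged over the 3 libraries, was highest. The class of highest level was the same in each library for 20 of 37 members, so for the others the placing depends on the library. The class by the average was vessel endothelium for 21 of 37 members, among them 15 of 24 low-basal and 6 of 7 gamma-like genes, but for none of the 6 high-basal genes. Non-classical monocytes and the dendritic class were highest for 5 each and B cells for 3. Alveolar fibroblasts, club cells and the Icos/Cxcr6 class were highest for 1 each. Classes that were not compared had no part in this placing and can stand higher. The members are given below by the role of their products.

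Transcription factors came first. Irf7, the factor that amplifies type I interferon production, was highest of the compared classes in non-classical monocytes, at 80.4 CPM in FLASH (12 UMIs), 66.5 CPM in CONV (12 UMIs) and 112 CPM in control (9 UMIs). Classical monocytes, a class not compared for its few control cells, stood above that in every library. They had 137 CPM in FLASH (38 UMIs), 120 CPM in CONV (45 UMIs) and 391 CPM in control (42 UMIs). Irf9, the DNA-binding part of the type I complex, was highest in vessel endothelium, at 76.7 CPM in FLASH (11 UMIs), 29.8 CPM in CONV (4 UMIs) and 55.7 CPM in control (11 UMIs). Irf9 did not single out endothelium: the dendritic class had 81.6 CPM in FLASH (9 UMIs), 38.3 CPM in CONV (8 UMIs) and 32.02 CPM in control (10 UMIs). Endothelium was the highest compared class of Irf9 by the average but in no single library. The highest was the dendritic class in FLASH, T cells in CONV and non-classical monocytes in control. Stat2, another part of that complex, was highest in vessel endothelium, at 48.8 CPM in FLASH (7 UMIs), 22.4 CPM in CONV (3 UMIs) and 60.7 CPM in control (12 UMIs). Sp100, a constituent of nuclear bodies, was highest in B cells, at 192 CPM in FLASH (40 UMIs), 235 CPM in CONV (46 UMIs) and 271 CPM in control (141 UMIs). In endothelium Irf7 had 6, 2 and 8 UMIs in FLASH, CONV and control. For Sp100 in B cells the intervals of both ratios to control included 1.

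Isg15, the ubiquitin-like modifier, and Usp18, the protease that removes it and restrains the receptor, form a pair. In FLASH, Isg15 stood at 181 CPM in vessel endothelium, 12.9 in alveolar fibroblasts, 5.61 in AT2 cells, 14.5 in club cells, 4.71 in alveolar macrophages, 6.70 in non-classical monocytes, 45.3 in the dendritic class, 26.6 in NK cells, 34.7 in T cells, 7.59 in the Icos/Cxcr6 class and 0 in B cells. In CONV, Isg15 had 29.8 CPM in vessel endothelium, 7.95 in alveolar fibroblasts, 5.08 in AT2 cells, 14.2 in club cells, 10.9 in alveolar macrophages, 16.6 in non-classical monocytes, 23.9 in the dendritic class, 51.95 in NK cells, 12.7 in T cells, 46.1 in the Icos/Cxcr6 class and 5.11 in B cells. In control, Isg15 reached 121 CPM in vessel endothelium, 22.2 in alveolar fibroblasts, 7.92 in AT2 cells, 24.5 in club cells, 4.09 in alveolar macrophages, 49.9 in non-classical monocytes, 67.2 in the dendritic class, 74.5 in NK cells, 78.8 in T cells, 72.8 in the Icos/Cxcr6 class and 28.8 in B cells. Isg15 was highest in endothelium of FLASH and control but not of CONV, where the Icos/Cxcr6 class and NK cells stood above it. In 9 of the 10 other classes control was the highest library. The exception was alveolar macrophages, with 5 UMIs or fewer in each library. Some of the 9 classes rested on few UMIs too, non-classical monocytes among them. Usp18 had 341 UMIs in all kept cells, but few in its highest compared class. That class was vessel endothelium, at 34.9 CPM in FLASH (5 UMIs), 0 CPM in CONV (0 UMIs) and 35.4 CPM in control (7 UMIs). Among ciliated cells, a class that was not compared, 1 control cell alone held 12 Usp18 UMIs. The members of the IFIT family, which bind foreign RNA, gave 105 CPM in FLASH (15 UMIs), 14.9 CPM in CONV (2 UMIs) and 96.2 CPM in control (19 UMIs) for Ifit1 in vessel endothelium. For Ifit3 the same class had 119 CPM in FLASH (17 UMIs), 44.7 CPM in CONV (6 UMIs) and 75.9 CPM in control (15 UMIs). CONV was the low library for both. Ifit2 differed in place, being highest in alveolar fibroblasts, at 28.98 CPM in FLASH (9 UMIs), 19.9 CPM in CONV (10 UMIs) and 22.2 CPM in control (6 UMIs).

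Of the oligoadenylate synthetases and nucleases, Oasl2, an oligoadenylate synthetase-like protein, was highest in vessel endothelium, at 34.9 CPM in FLASH (5 UMIs), 14.9 CPM in CONV (2 UMIs) and 116 CPM in control (23 UMIs). Oas1a, an oligoadenylate synthetase, was highest in non-classical monocytes, at 26.8 CPM in FLASH (4 UMIs), 22.2 CPM in CONV (4 UMIs) and 24.9 CPM in control (2 UMIs). Isg20, an exonuclease that degrades RNA, was highest in club cells, at 24.8 CPM in FLASH (12 UMIs), 44.3 CPM in CONV (28 UMIs) and 111 CPM in control (68 UMIs). Of the 68 control UMIs of Isg20 in club cells, 37 came from 1 cell. Among sensors of foreign nucleic acid, Ddx58, which encodes RIG-I, was highest in vessel endothelium, at 62.8 CPM in FLASH (9 UMIs), 37.3 CPM in CONV (5 UMIs) and 40.5 CPM in control (8 UMIs). Ifih1, a helicase that senses long double-stranded RNA, was highest in vessel endothelium, at 0 CPM in FLASH (0 UMIs), 44.7 CPM in CONV (6 UMIs) and 20.2 CPM in control (4 UMIs). Dhx58, a helicase that regulates them, was highest in the dendritic class, at 27.2 CPM in FLASH (3 UMIs), 0 CPM in CONV (0 UMIs) and 19.2 CPM in control (6 UMIs). Zbp1, a sensor of nucleic acid in the Z form, was highest in non-classical monocytes, at 107 CPM in FLASH (16 UMIs), 133 CPM in CONV (24 UMIs) and 125 CPM in control (10 UMIs). Zbp1 in non-classical monocytes differed by less than counting error between CONV and control, while Ifih1 had no UMI in the FLASH endothelium. The placing of Ifih1 was close to a tie: non-classical monocytes had 6.70 CPM in FLASH (1 UMI), 33.2 CPM in CONV (6 UMIs) and 24.9 CPM in control (2 UMIs), and endothelium was its highest class in CONV alone.

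Ifitm3 blocks viral entry at endosomal membranes. In FLASH, Ifitm3 stood at 3809.5 CPM in vessel endothelium, 2254 in alveolar fibroblasts, 74.9 in AT2 cells, 246 in club cells, 104 in alveolar macrophages, 3462 in non-classical monocytes, 1124 in the dendritic class, 66.6 in NK cells, 87.99 in T cells, 53.1 in the Icos/Cxcr6 class and 91.4 in B cells. In CONV, Ifitm3 had 3281 CPM in vessel endothelium, 2264 in alveolar fibroblasts, 89.5 in AT2 cells, 261 in club cells, 93.7 in alveolar macrophages, 3661 in non-classical monocytes, 1114 in the dendritic class, 126 in NK cells, 105 in T cells, 101 in the Icos/Cxcr6 class and 66.4 in B cells. In control, Ifitm3 reached 3689.7 CPM in vessel endothelium, 2419 in alveolar fibroblasts, 35.1 in AT2 cells, 305 in club cells, 40.9 in alveolar macrophages, 4279 in non-classical monocytes, 807 in the dendritic class, 8.28 in NK cells, 19.7 in T cells, 32.5 in the Icos/Cxcr6 class and 30.8 in B cells. The levels fell into a high and a low set of classes: endothelium, fibroblasts, non-classical monocytes and the dendritic class were high in every library, club cells lay between, and AT2, NK, T, B, Icos/Cxcr6 cells and alveolar macrophages were low. In each of the low classes both irradiated libraries stood above control.

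Ly6e encodes a lipid-anchored surface protein. In FLASH, Ly6e stood at 2247 CPM in vessel endothelium, 83.7 in alveolar fibroblasts, 548 in AT2 cells, 395 in club cells, 311 in alveolar macrophages, 2578 in non-classical monocytes, 870.4 in the dendritic class, 586 in NK cells, 605 in T cells, 1396 in the Icos/Cxcr6 class and 2481 in B cells. In CONV, Ly6e had 1917 CPM in vessel endothelium, 135 in alveolar fibroblasts, 559.8 in AT2 cells, 451 in club cells, 298 in alveolar macrophages, 2127 in non-classical monocytes, 1114 in the dendritic class, 779 in NK cells, 646 in T cells, 1422 in the Icos/Cxcr6 class and 2289.5 in B cells. In control, Ly6e reached 3006 CPM in vessel endothelium, 192 in alveolar fibroblasts, 730.2 in AT2 cells, 509 in club cells, 303 in alveolar macrophages, 2532 in non-classical monocytes, 1108 in the dendritic class, 720.4 in NK cells, 702 in T cells, 1172 in the Icos/Cxcr6 class and 2914 in B cells. B cells, non-classical monocytes and endothelium were the high classes in every library. FLASH was the lowest library in 6 of the 11 classes.

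The other membrane and GTPase effectors were uneven in depth. Bst2, tetherin, which holds budding virions at the surface, was highest in the dendritic class, at 734 CPM in FLASH (81 UMIs), 607 CPM in CONV (127 UMIs) and 515 CPM in control (161 UMIs). In the dendritic class, 6, 7 and 7 cells of FLASH, CONV and control carried at least 5 UMIs of plasmacytoid dendritic markers. Bst2 had 4778 CPM in FLASH, 3857 CPM in CONV and 4422 CPM in control in those cells, and 273 CPM in FLASH, 308 CPM in CONV and 127 CPM in control in the rest of the class. Rsad2, viperin, a radical enzyme that blocks viral replication, was highest in vessel endothelium, at 13.95 CPM in FLASH (2 UMIs), 7.46 CPM in CONV (1 UMI) and 10.1 CPM in control (2 UMIs). Cmpk2, a mitochondrial nucleotide kinase, was highest in vessel endothelium, at 20.9 CPM in FLASH (3 UMIs), 14.9 CPM in CONV (2 UMIs) and 45.6 CPM in control (9 UMIs). Mx1, a dynamin-like GTPase that RefSeq lists as a transcribed pseudogene in this reference strain, was highest in the dendritic class, at 9.07 CPM in FLASH (1 UMI), 9.56 CPM in CONV (2 UMIs) and 19.2 CPM in control (6 UMIs). Mx1 had 29 UMIs in all kept cells, the fewest of the members, and Rsad2 had 60.

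Ifi35, a leucine-zipper protein, was the low-basal member with the most UMIs. It had 1422 in all kept cells, more than the high-basal members Sp100 (1344) and Isg20 (558). In FLASH, Ifi35 stood at 160.5 CPM in vessel endothelium, 96.6 in alveolar fibroblasts, 18.7 in AT2 cells, 20.7 in club cells, 28.3 in alveolar macrophages, 66.96 in non-classical monocytes, 90.7 in the dendritic class, 79.9 in NK cells, 63.99 in T cells, 37.9 in the Icos/Cxcr6 class and 43.3 in B cells. In CONV, Ifi35 had 164 CPM in vessel endothelium, 91.4 in alveolar fibroblasts, 23.5 in AT2 cells, 20.6 in club cells, 43.6 in alveolar macrophages, 77.5 in non-classical monocytes, 76.5 in the dendritic class, 66.8 in NK cells, 58.1 in T cells, 46.1 in the Icos/Cxcr6 class and 81.8 in B cells. In control, Ifi35 reached 228 CPM in vessel endothelium, 122 in alveolar fibroblasts, 15.8 in AT2 cells, 53.9 in club cells, 32.8 in alveolar macrophages, 49.9 in non-classical monocytes, 125 in the dendritic class, 86.9 in NK cells, 76.6 in T cells, 63.2 in the Icos/Cxcr6 class and 92.3 in B cells. Endothelium was highest in each library. Alveolar fibroblasts followed in FLASH and CONV, whereas the dendritic class followed in control. Rtp4 encodes a receptor transporter protein. In FLASH, Rtp4 stood at 76.7 CPM in vessel endothelium, 25.8 in alveolar fibroblasts, 0.936 in AT2 cells, 4.14 in club cells, 2.36 in alveolar macrophages, 13.4 in non-classical monocytes, 0 in the dendritic class, 39.9 in NK cells, 21.3 in T cells, 7.59 in the Icos/Cxcr6 class and 4.81 in B cells. In CONV, Rtp4 had 52.2 CPM in vessel endothelium, 23.8 in alveolar fibroblasts, 5.08 in AT2 cells, 6.32 in club cells, 2.18 in alveolar macrophages, 5.54 in non-classical monocytes, 4.78 in the dendritic class, 7.42 in NK cells, 12.7 in T cells, 16.8 in the Icos/Cxcr6 class and 20.4 in B cells. In control, Rtp4 reached 172 CPM in vessel endothelium, 22.2 in alveolar fibroblasts, 4.53 in AT2 cells, 8.16 in club cells, 4.09 in alveolar macrophages, 37.4 in non-classical monocytes, 48.03 in the dendritic class, 20.7 in NK cells, 54.7 in T cells, 49.8 in the Icos/Cxcr6 class and 36.5 in B cells. Control stood above both irradiated libraries in 8 of the 11 classes. The exceptions were alveolar fibroblasts, AT2 cells and NK cells. UMIs were few in these and also in several of the 8, such as alveolar macrophages, non-classical monocytes and club cells. The count therefore gives the order of levels alone.

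Ifi27l2a encodes a small mitochondrial membrane protein. In FLASH, Ifi27l2a stood at 119 CPM in vessel endothelium, 525 in alveolar fibroblasts, 17.8 in AT2 cells, 14.5 in club cells, 44.8 in alveolar macrophages, 562 in non-classical monocytes, 335 in the dendritic class, 179.7 in NK cells, 331 in T cells, 804 in the Icos/Cxcr6 class and 394 in B cells. In CONV, Ifi27l2a had 142 CPM in vessel endothelium, 475 in alveolar fibroblasts, 31.1 in AT2 cells, 31.6 in club cells, 74.1 in alveolar macrophages, 532 in non-classical monocytes, 363 in the dendritic class, 186 in NK cells, 330.5 in T cells, 1170.1 in the Icos/Cxcr6 class and 353 in B cells. In control, Ifi27l2a reached 60.7 CPM in vessel endothelium, 879 in alveolar fibroblasts, 32.8 in AT2 cells, 93.03 in club cells, 40.9 in alveolar macrophages, 1335 in non-classical monocytes, 314 in the dendritic class, 211 in NK cells, 665 in T cells, 511 in the Icos/Cxcr6 class and 730.3 in B cells. Control was well above either irradiated library in non-classical monocytes, T cells and B cells, and also the highest in fibroblasts. In the Icos/Cxcr6 class, endothelium and alveolar macrophages control was the lowest library and CONV the highest.

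The remaining low-basal members follow. Xaf1, a partner of the apoptosis inhibitor XIAP, was highest in vessel endothelium, at 133 CPM in FLASH (19 UMIs), 37.3 CPM in CONV (5 UMIs) and 157 CPM in control (31 UMIs). Parp14, an ADP-ribosyltransferase, was highest in vessel endothelium, at 27.9 CPM in FLASH (4 UMIs), 37.3 CPM in CONV (5 UMIs) and 106 CPM in control (21 UMIs). Phf11b, a zinc-finger protein, was highest in the dendritic class, at 81.6 CPM in FLASH (9 UMIs), 76.5 CPM in CONV (16 UMIs) and 141 CPM in control (44 UMIs). Xaf1 and Parp14 had CONV well below control in endothelium, and FLASH was near control for Xaf1 alone. Endothelium was the highest compared class of Parp14 in control alone. The Icos/Cxcr6 class was highest in FLASH, at 53.1 CPM, and non-classical monocytes were highest in CONV. Trim30a, a ubiquitin ligase, was highest in the dendritic class, at 81.6 CPM in FLASH (9 UMIs), 100.4 CPM in CONV (21 UMIs) and 80.04 CPM in control (25 UMIs). Ifi204, a sensor of foreign DNA, was highest in non-classical monocytes, at 93.7 CPM in FLASH (14 UMIs), 66.5 CPM in CONV (12 UMIs) and 149.7 CPM in control (12 UMIs). Ifi204 was also present in alveolar macrophages, at 30.6 CPM in FLASH (13 UMIs), 8.71 CPM in CONV (4 UMIs) and 20.5 CPM in control (5 UMIs), where FLASH was the highest library.

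The gamma-like genes were guanylate-binding proteins and immunity-related GTPases, both of which attack the vacuoles of pathogens. In FLASH, Gbp2 stood at 48.8 CPM in vessel endothelium, 54.7 in alveolar fibroblasts, 0 in AT2 cells, 0 in club cells, 9.42 in alveolar macrophages, 0 in non-classical monocytes, 18.1 in the dendritic class, 26.6 in NK cells, 39.995 in T cells, 0 in the Icos/Cxcr6 class and 14.4 in B cells. In CONV, Gbp2 had 104 CPM in vessel endothelium, 35.8 in alveolar fibroblasts, 0.635 in AT2 cells, 1.58 in club cells, 23.97 in alveolar macrophages, 5.54 in non-classical monocytes, 4.78 in the dendritic class, 22.3 in NK cells, 38.1 in T cells, 20.97 in the Icos/Cxcr6 class and 15.3 in B cells. In control, Gbp2 reached 202 CPM in vessel endothelium, 29.5 in alveolar fibroblasts, 2.26 in AT2 cells, 3.26 in club cells, 8.19 in alveolar macrophages, 12.5 in non-classical monocytes, 19.2 in the dendritic class, 24.8 in NK cells, 30.6 in T cells, 40.2 in the Icos/Cxcr6 class and 24.98 in B cells. Endothelium was highest in CONV and control, and alveolar fibroblasts in FLASH. The order of libraries in endothelium, with FLASH lowest, was reversed in fibroblasts. In fibroblasts Gbp2 had too few UMIs for either comparison with control, and the interval of FLASH over CONV included 1. In FLASH, Gbp7 stood at 76.7 CPM in vessel endothelium, 22.5 in alveolar fibroblasts, 5.61 in AT2 cells, 0 in club cells, 30.6 in alveolar macrophages, 0 in non-classical monocytes, 9.07 in the dendritic class, 66.6 in NK cells, 21.3 in T cells, 15.2 in the Icos/Cxcr6 class and 19.2 in B cells. In CONV, Gbp7 had 74.6 CPM in vessel endothelium, 13.9 in alveolar fibroblasts, 3.17 in AT2 cells, 1.58 in club cells, 26.1 in alveolar macrophages, 5.54 in non-classical monocytes, 19.1 in the dendritic class, 74.2 in NK cells, 19.97 in T cells, 37.7 in the Icos/Cxcr6 class and 10.2 in B cells. In control, Gbp7 reached 147 CPM in vessel endothelium, 22.2 in alveolar fibroblasts, 0 in AT2 cells, 3.26 in club cells, 36.9 in alveolar macrophages, 0 in non-classical monocytes, 3.20 in the dendritic class, 41.4 in NK cells, 24.1 in T cells, 40.2 in the Icos/Cxcr6 class and 15.4 in B cells. Endothelium was highest and NK cells were second in every library. In control, however, NK cells were close to the Icos/Cxcr6 class and alveolar macrophages. Control was the highest library in endothelium and the lowest in NK cells. Gbp7 had too few UMIs in NK cells to be compared between libraries. Gbp3 was highest in B cells, at 38.5 CPM in FLASH (8 UMIs), 35.8 CPM in CONV (7 UMIs) and 30.8 CPM in control (16 UMIs), and its control level in endothelium was 65.8 CPM.

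Ifi47 is an immunity-related GTPase. In FLASH, Ifi47 stood at 69.8 CPM in vessel endothelium, 0 in alveolar fibroblasts, 1.87 in AT2 cells, 0 in club cells, 7.07 in alveolar macrophages, 0 in non-classical monocytes, 0 in the dendritic class, 93.2 in NK cells, 85.3 in T cells, 83.5 in the Icos/Cxcr6 class and 19.2 in B cells. In CONV, Ifi47 had 96.9 CPM in vessel endothelium, 0 in alveolar fibroblasts, 3.81 in AT2 cells, 1.58 in club cells, 17.4 in alveolar macrophages, 11.1 in non-classical monocytes, 19.1 in the dendritic class, 126 in NK cells, 111 in T cells, 96.5 in the Icos/Cxcr6 class and 25.6 in B cells. In control, Ifi47 reached 157 CPM in vessel endothelium, 3.69 in alveolar fibroblasts, 2.26 in AT2 cells, 9.79 in club cells, 12.3 in alveolar macrophages, 37.4 in non-classical monocytes, 25.6 in the dendritic class, 82.8 in NK cells, 116 in T cells, 57.4 in the Icos/Cxcr6 class and 26.9 in B cells. Only endothelium, NK, T and Icos/Cxcr6 cells had Ifi47 above all the other classes in each library, and 0 UMIs were found in fibroblasts of both irradiated libraries. Control was highest in endothelium and T cells, and CONV was highest in NK and Icos/Cxcr6 cells. Igtp, another of that family, was highest in vessel endothelium, at 34.9 CPM in FLASH (5 UMIs), 44.7 CPM in CONV (6 UMIs) and 106 CPM in control (21 UMIs). Irgm1, their regulator, was highest in vessel endothelium, at 55.8 CPM in FLASH (8 UMIs), 44.7 CPM in CONV (6 UMIs) and 116 CPM in control (23 UMIs). Iigp1, a family member that loads onto vacuoles, was highest in vessel endothelium, at 105 CPM in FLASH (15 UMIs), 127 CPM in CONV (17 UMIs) and 192 CPM in control (38 UMIs). For Igtp, Irgm1 and Iigp1 alike, endothelium of both irradiated libraries lay below control. Endothelium was the highest compared class of Igtp in control alone, with NK cells highest in FLASH and the Icos/Cxcr6 class in CONV.

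Members were next compared between libraries within each class. A gene was compared where both libraries together had at least 30 UMIs in the class, and it was called higher or lower at a ratio of CPM of at least 1.5 or at most 1 over 1.5. Of the 407 pairs of a class and a member, 87 could be compared for FLASH over control, 93 for CONV over control and 67 for FLASH over CONV. They came from 23 members, and 14 members never reached 30 UMIs. A low gene passes this limit more easily where 1 library is high, so these counts describe the pairs that passed and not all 407. For FLASH over control, 34 of 87 pairs were lower, against 15.1% of all gene and class pairs, and 6 were higher, against 9.14%. The lower pairs were 15 of 30 low-basal, 12 of 47 high-basal and 7 of 10 gamma-like pairs. For CONV over control, 35 of 93 were lower, against 13.5%, and 9 were higher, against 10.9%. The lower pairs were 18 of 31 low-basal, 11 of 50 high-basal and 6 of 12 gamma-like pairs. For FLASH over CONV, 10 of 67 were lower, against 8.02%, and 2 were higher, against 6.18%. The higher calls of either irradiated library over control were thus near or below the background share, and the lower calls were above it. The members were chosen with earlier results of these data known. These shares therefore describe the chosen list and give it no independent support.

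Genes with few UMIs pass a fold more often by counting error, and most members have few. Among pairs under 100 UMIs, 30 of 61 members were lower for FLASH over control, against 18.2% of all pairs, and 4 were higher, against 10.9%. For CONV over control, 30 of 63 were lower, against 16.0%, and 7 were higher, against 13.1%. For FLASH over CONV, 10 of 41 were lower, against 11.0%, and 2 were higher, against 8.47%. FLASH over control and CONV over control share the control library, so a control library high in these genes would move both, and they are no independent pair of results.

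**Figure D2:**
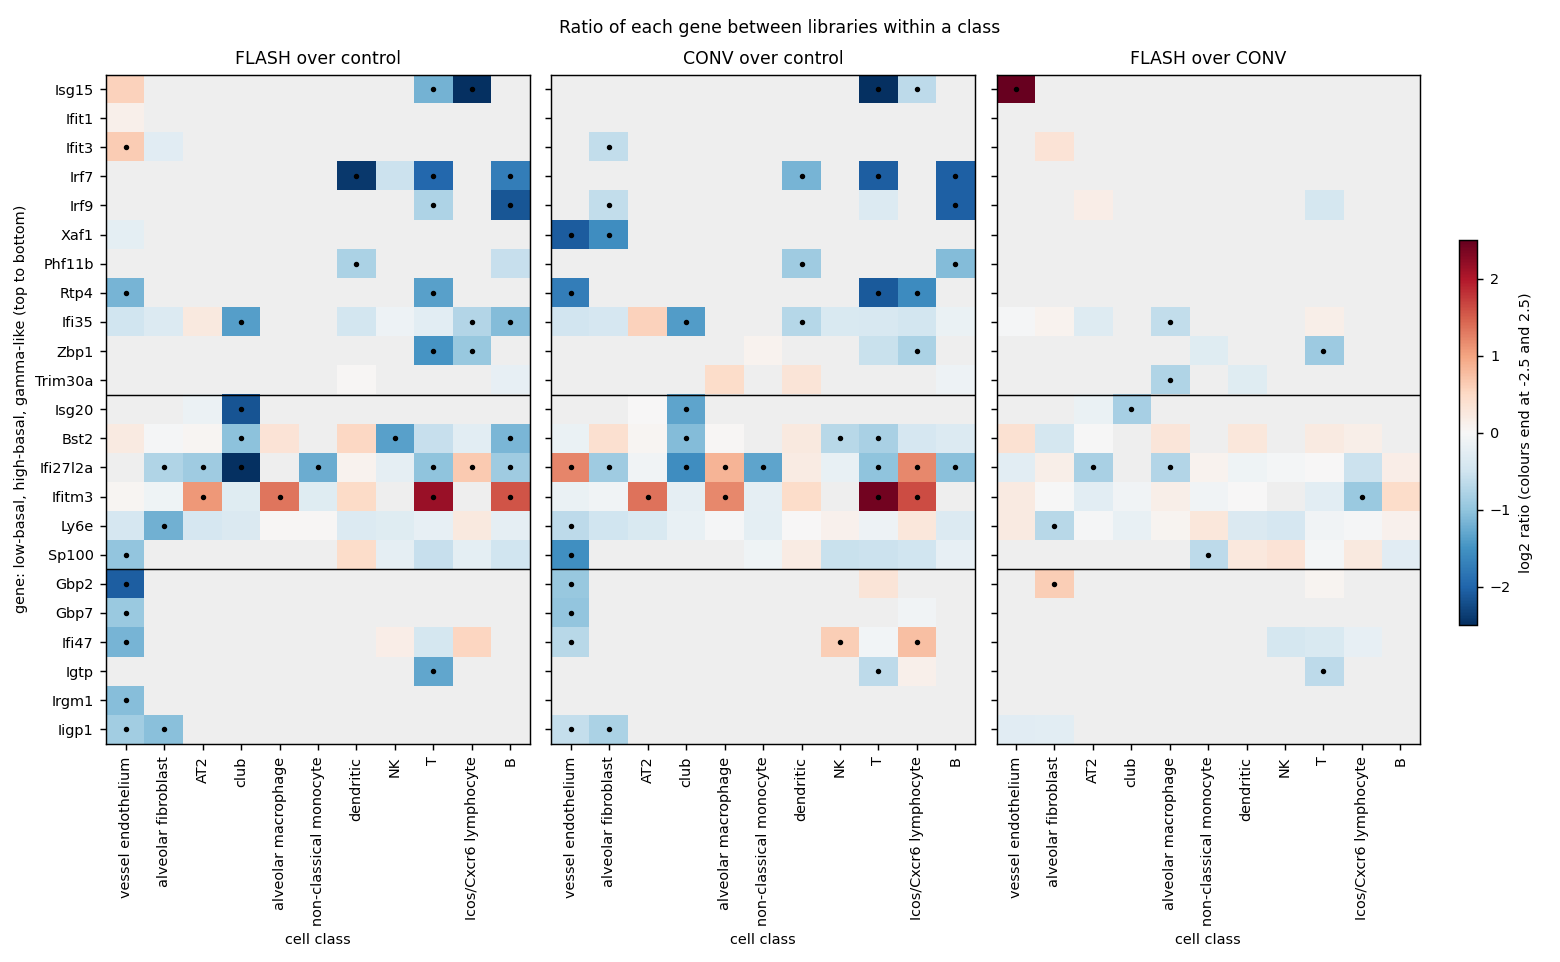
Log2 ratio of CPM between libraries for the members with at least 30 UMIs over both libraries in a class (columns: classes; rows: genes; grey: fewer UMIs; dots: ratio past 1.5-fold). Blue marks lower and red higher in the first-named library; Ifitm3 is the row with red cells in AT2, alveolar macrophages and T cells in both comparisons with control, and Isg15 in vessel endothelium is the deepest red cell of FLASH over CONV.

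Vessel endothelium, the lining of blood vessels, had 7 of 15 compared members lower and 1 higher for FLASH over control (background 17.8% and 12.9%, median log2 ratio -0.51 beside -0.05 for all genes) and 8 of 12 compared members lower and 1 higher for CONV over control (background 18.9% and 14.1%, median log2 ratio -0.67 beside -0.06 for all genes). Of 7 members compared between FLASH and CONV, 0 were lower and 1 higher in FLASH (background 7.80% and 8.73%). For Gbp2 the levels were 48.8 CPM in FLASH (7 UMIs), 104 CPM in CONV (14 UMIs) and 202 CPM in control (40 UMIs), 0.241 times control in FLASH (95% interval 0.0912 to 0.544) and 0.516 times control in CONV (95% interval 0.259 to 0.968). The level of Iigp1 was 105 CPM in FLASH (15 UMIs), 127 CPM in CONV (17 UMIs) and 192 CPM in control (38 UMIs), 0.544 times control in FLASH (95% interval 0.278 to 1.01) and 0.659 times control in CONV (95% interval 0.349 to 1.20). Gbp7 and Irgm1 were lower too, at 0.523 times control in FLASH (95% interval 0.236 to 1.08) and 0.508 times control in CONV (95% interval 0.221 to 1.07) for Gbp7 and at 0.479 times control in FLASH (95% interval 0.185 to 1.11) for Irgm1. Ifi47 was 0.445 times control in FLASH (95% interval 0.194 to 0.931) and 0.618 times control in CONV (95% interval 0.297 to 1.22). All 5 gamma-like genes compared in FLASH were therefore lower than in control, and for Gbp2 and Ifi47 in FLASH the interval stayed below 1. Rtp4 was 0.446 times control in FLASH (95% interval 0.204 to 0.901) and 0.303 times control in CONV (95% interval 0.113 to 0.695). Xaf1 was 0.845 times control in FLASH (95% interval 0.451 to 1.54) and 0.238 times control in CONV (95% interval 0.0721 to 0.616). Rtp4 was low in both irradiated libraries, whereas Xaf1 was low in CONV alone and its FLASH interval included 1. For Sp100 the levels were 76.7 CPM in FLASH (11 UMIs), 52.2 CPM in CONV (7 UMIs) and 152 CPM in control (30 UMIs), 0.505 times control in FLASH (95% interval 0.229 to 1.04) and 0.344 times control in CONV (95% interval 0.127 to 0.799). Ly6e was 0.747 times control in FLASH (95% interval 0.650 to 0.857) and 0.637 times control in CONV (95% interval 0.549 to 0.739). The calls of a higher level were uncertain. Ifit3 was 1.56 times control in FLASH (95% interval 0.734 to 3.36), and Ifi27l2a was 2.33 times control in CONV (95% interval 1.08 to 5.27). For Ifi27l2a, 15 of the 19 CONV UMIs came from 1 cell, and without the top cell of each library the ratio turned to 0.707. Of the 67 pairs compared between the irradiated libraries, Isg15 in endothelium had the largest ratio, being 6.08 times CONV in FLASH (95% interval 2.11 to 23.98), from 26 UMIs in FLASH and 4 in CONV. Of the 26, 7 came from 1 cell. Without the top cell of each library the ratio was 5.75, but the pair then had under 30 UMIs and was no longer called. With 28 UMIs in all, Isg15 was below the limit for CONV over control.

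**Figure D3:**
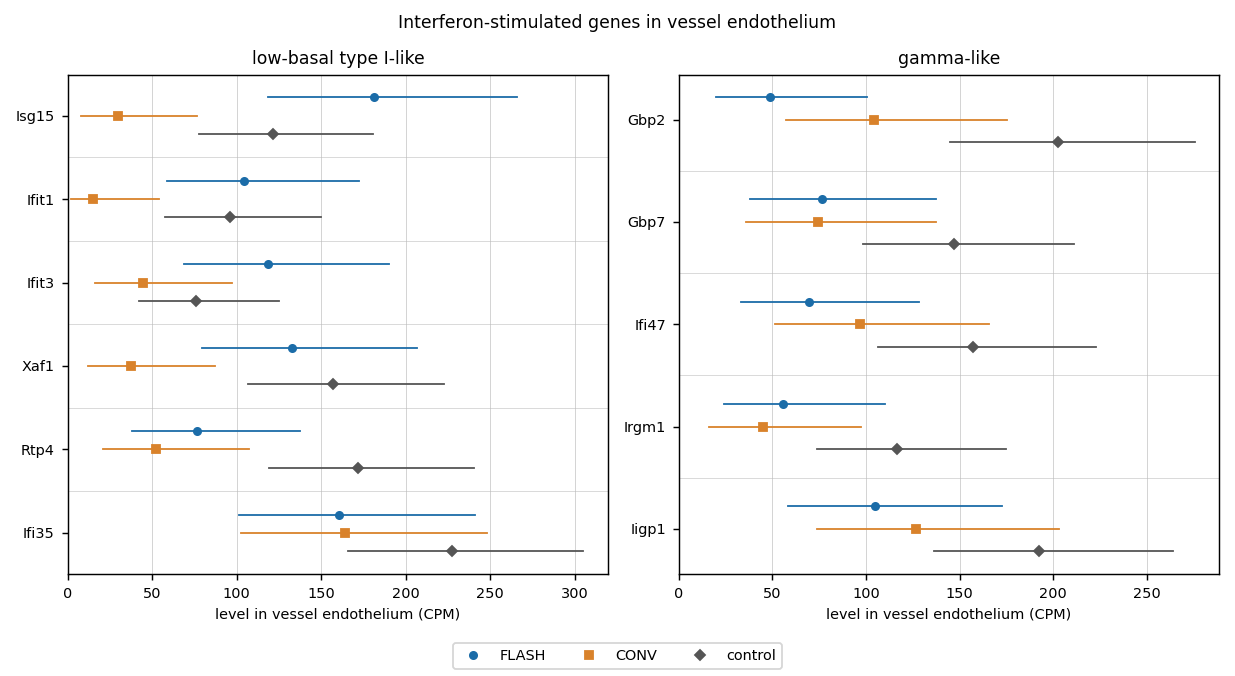
Level (CPM) of 6 low-basal and 5 gamma-like genes in vessel endothelium. Points are single libraries (FLASH, CONV, control) and lines are exact 95% Poisson intervals; Isg15 stands at 181 CPM in FLASH, 29.8 CPM in CONV and 121 CPM in control, whereas all 5 gamma-like genes are highest in control.

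T cells had 7 of 13 compared members lower and 1 higher for FLASH over control (background 16.8% and 6.09%, median log2 ratio -0.78 beside -0.16 for all genes) and 6 of 14 compared members lower and 1 higher for CONV over control (background 15% and 7.95%, median log2 ratio -0.55 beside -0.13 for all genes). Between the irradiated libraries, 2 of 11 were lower and 0 higher in FLASH (background 8.12% and 4.76%). Irf7 stood at 21.3 CPM in FLASH (8 UMIs), 19.97 CPM in CONV (11 UMIs) and 83.1 CPM in control (38 UMIs), 0.257 times control in FLASH (95% interval 0.103 to 0.558) and 0.240 times control in CONV (95% interval 0.111 to 0.480). Isg15 was 0.440 times control in FLASH (95% interval 0.214 to 0.850) and 0.161 times control in CONV (95% interval 0.0606 to 0.368). Rtp4 was 0.390 times control in FLASH (95% interval 0.152 to 0.892) and 0.232 times control in CONV (95% interval 0.0849 to 0.553). For Irf7, Isg15 and Rtp4 the intervals lay below 1 in FLASH and in CONV. Zbp1 had 21.3 CPM in FLASH (8 UMIs), 39.9 CPM in CONV (22 UMIs) and 59.1 CPM in control (27 UMIs), 0.361 times control in FLASH (95% interval 0.142 to 0.817) and 0.534 times CONV in FLASH (95% interval 0.206 to 1.25). Ifi27l2a was 0.497 times control in FLASH (95% interval 0.4002 to 0.615) and 0.497 times control in CONV (95% interval 0.411 to 0.599). For Igtp the levels were 26.7 CPM in FLASH (10 UMIs), 41.8 CPM in CONV (23 UMIs) and 65.6 CPM in control (30 UMIs), 0.638 times CONV in FLASH (95% interval 0.271 to 1.39). Zbp1 and Igtp had CONV between FLASH and control, but the intervals of FLASH over CONV included 1. At a Leiden resolution of 1.6 Ifi27l2a in T cells was 0.659 times control in FLASH and 0.801 times control in CONV, where it was no longer past the fold. Ifitm3 went the other way, at 4.47 times control in FLASH (95% interval 2.09 to 10.6) and 5.35 times control in CONV (95% interval 2.63 to 12.3), and at 2.72 in FLASH and 3.34 in CONV at that resolution. In T cells the transcripts Sftpc of AT2 cells and Mgp of stromal cells, which T cells should lack, were higher in the irradiated libraries as well: Sftpc had 2261 CPM in FLASH, 3323 CPM in CONV and 1015 CPM in control and Mgp 331 CPM in FLASH, 405 CPM in CONV and 70.0 CPM in control. Lyz2, a myeloid and AT2 transcript, had 479.9 CPM in FLASH, 597 CPM in CONV and 228 CPM in control. Their part in the Ifitm3 ratio was not tested. The 7 T-cell markers summed to 3730.2 CPM in FLASH, 3775 CPM in CONV and 4823 CPM in control.

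B cells had 5 of 10 compared members lower and 1 higher for FLASH over control (background 16.3% and 6.96%, median log2 ratio -0.74 beside -0.08 for all genes) and 4 of 9 compared members lower and 0 higher for CONV over control (background 13.7% and 9.60%, median log2 ratio -0.35 beside -0.02 for all genes). FLASH over CONV gave 0 lower and 0 higher of 4 compared (background 9.34% and 6.77%). Ifi27l2a was 0.540 times control in FLASH (95% interval 0.420 to 0.687) and 0.483 times control in CONV (95% interval 0.368 to 0.625). Irf7 stood at 19.2 CPM in FLASH (4 UMIs), 15.3 CPM in CONV (3 UMIs) and 63.4 CPM in control (33 UMIs), 0.303 times control in FLASH (95% interval 0.0780 to 0.853) and 0.242 times control in CONV (95% interval 0.0474 to 0.771). For Irf9 the levels were 14.4 CPM in FLASH (3 UMIs), 15.3 CPM in CONV (3 UMIs) and 63.4 CPM in control (33 UMIs), 0.227 times control in FLASH (95% interval 0.0446 to 0.725) and 0.242 times control in CONV (95% interval 0.0474 to 0.771). Both transcription factors rested on 3 or 4 UMIs in each irradiated library, against 33 in control. Ifi35 was 0.469 times control in FLASH (95% interval 0.202 to 0.967). Phf11b had 57.7 CPM in FLASH (12 UMIs), 40.9 CPM in CONV (8 UMIs) and 86.5 CPM in control (45 UMIs), 0.473 times control in CONV (95% interval 0.192 to 1.01). The interval of Phf11b in CONV included 1. Ifitm3 was 2.97 times control in FLASH (95% interval 1.45 to 6.18), beside Mgp with 370.2 CPM in FLASH, 399 CPM in CONV and 69.2 CPM in control in the same cells. Haemoglobin and other erythroid markers summed to 13569 CPM in FLASH, 102 CPM in CONV and 36.5 CPM in control in B cells, and their part in the values was not tested.

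NK cells, which secrete interferon-gamma, had 1 of 7 compared members lower and 0 higher for FLASH over control (background 14.4% and 6.69%, median log2 ratio -0.23 beside -0.10 for all genes) and 1 of 6 compared members lower and 1 higher for CONV over control (background 14.8% and 7.73%, median log2 ratio -0.28 beside -0.09 for all genes). FLASH over CONV gave 0 lower and 0 higher of 4 compared (background 7.45% and 7.45%). For Bst2 the levels were 46.6 CPM in FLASH (7 UMIs), 74.2 CPM in CONV (10 UMIs) and 120.1 CPM in control (29 UMIs), 0.388 times control in FLASH (95% interval 0.144 to 0.905) and 0.618 times control in CONV (95% interval 0.269 to 1.30). Ifi47 was 1.52 times control in CONV (95% interval 0.750 to 3.06). Only the interval of Bst2 in FLASH lay clear of 1, and Bst2 in CONV turned to 1.34 and 1.38 times control under other cell filters and clusterings. Ifitm3 was not compared there, with 66.6 CPM in FLASH (10 UMIs), 126 CPM in CONV (17 UMIs) and 8.28 CPM in control (2 UMIs), and Lyz2 in NK cells had 626 CPM in FLASH, 1069 CPM in CONV and 161 CPM in control. The Icos/Cxcr6 class had 3 of 8 compared members lower and 1 higher for FLASH over control (background 26.6% and 13.6%, median log2 ratio -0.26 beside -0.13 for all genes) and 3 of 12 compared members lower and 3 higher for CONV over control (background 22.5% and 14.7%, median log2 ratio -0.25 beside -0.08 for all genes). Between the irradiated libraries, 1 of 6 was lower and 0 higher in FLASH (background 9.45% and 6.86%). Isg15 was 0.104 times control in FLASH (95% interval 0.00257 to 0.617) and 0.634 times control in CONV (95% interval 0.292 to 1.27). Rtp4 was 0.337 times control in CONV (95% interval 0.0855 to 0.971). For Zbp1 the levels were 37.9 CPM in FLASH (5 UMIs), 41.9 CPM in CONV (10 UMIs) and 72.8 CPM in control (38 UMIs), 0.521 times control in FLASH (95% interval 0.160 to 1.33) and 0.576 times control in CONV (95% interval 0.256 to 1.18). Isg15 in FLASH rested on 1 UMI. Ifi35 was 0.6004 times control in FLASH (95% interval 0.183 to 1.55), Ifi47 was 1.68 times control in CONV (95% interval 0.932 to 2.99) and Ifitm3 was 3.09 times control in CONV (95% interval 1.59 to 6.13) and 0.528 times CONV in FLASH (95% interval 0.192 to 1.26). Ifi27l2a was 1.57 times control in FLASH (95% interval 1.24 to 1.98) and 2.29 times control in CONV (95% interval 1.93 to 2.72). The class differed in makeup between libraries: the 7 thymocyte markers summed to 15.2 CPM in FLASH, 29.4 CPM in CONV and 697 CPM in control, and the 5 markers of dividing cells to 721 CPM in FLASH, 767 CPM in CONV and 47.9 CPM in control. The part of this was not tested, and at other clusterings the ratios of Ifi27l2a, Isg15, Rtp4 and Ifi35 in the class changed direction. At a Leiden resolution of 0.6, Isg15 was 3.24 times control in FLASH and 4.18 in CONV, and at 1.6 Ifi27l2a was 0.775 in FLASH and 0.873 in CONV. Ifitm3 kept its direction but not its size, being 8.21 times control in CONV at a mitochondrial limit of 5% and 20.3 times at a resolution of 1.6.

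Alveolar fibroblasts had 3 of 7 compared members lower and 0 higher for FLASH over control (background 10.9% and 8.33%, median log2 ratio -0.34 beside -0.05 for all genes) and 5 of 9 compared members lower and 0 higher for CONV over control (background 11.0% and 10.7%, median log2 ratio -0.61 beside -0.05 for all genes). Of 8 members compared between FLASH and CONV, 1 was lower and 1 higher in FLASH (background 7.76% and 7.21%). Ifi27l2a was 0.597 times control in FLASH (95% interval 0.486 to 0.732) and 0.540 times control in CONV (95% interval 0.450 to 0.649). Its FLASH ratio was no longer past the fold at a mitochondrial limit of 5% (0.744) or 20% (0.709), without doublet removal (0.734), with equal weight per cell (0.671) and with the members allowed in clustering (0.744), where the CONV ratio was 0.685. Ly6e was 0.436 times control in FLASH (95% interval 0.261 to 0.711) and 0.619 times CONV in FLASH (95% interval 0.378 to 0.986). The level of Iigp1 was 48.3 CPM in FLASH (15 UMIs), 57.6 CPM in CONV (29 UMIs) and 99.7 CPM in control (27 UMIs), 0.484 times control in FLASH (95% interval 0.239 to 0.943) and 0.578 times control in CONV (95% interval 0.330 to 1.01). Ly6e had FLASH below CONV and CONV below control, and without doublet removal FLASH over CONV was 0.808. Xaf1 had 28.98 CPM in FLASH (9 UMIs), 23.8 CPM in CONV (12 UMIs) and 70.2 CPM in control (19 UMIs), 0.340 times control in CONV (95% interval 0.150 to 0.737). Ifit3 was 0.651 times control in CONV (95% interval 0.339 to 1.26), and Gbp2 was 1.53 times CONV in FLASH (95% interval 0.741 to 3.15), both with intervals that included 1. AT2 cells had 1 of 6 compared members lower and 1 higher for FLASH over control (background 10.3% and 9.43%, median log2 ratio -0.06 beside -0.04 for all genes) and 0 of 6 compared members lower and 1 higher for CONV over control (background 8.83% and 11.3%, median log2 ratio 0.03 beside -0.0048 for all genes). FLASH over CONV gave 1 lower and 0 higher of 7 compared (background 6.48% and 4.73%). Ifitm3 was 2.13 times control in FLASH (95% interval 1.39 to 3.34) and 2.55 times control in CONV (95% interval 1.72 to 3.89). Ifi27l2a was 0.542 times control in FLASH (95% interval 0.287 to 0.999) and 0.572 times CONV in FLASH (95% interval 0.318 to 0.989), from 19 UMIs in FLASH, 49 in CONV and 29 in control. Mgp in AT2 cells had 284 CPM in FLASH, 359 CPM in CONV and 52.1 CPM in control, and its part in the Ifitm3 ratio was not tested.

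Club cells had 4 of 6 compared members lower and 0 higher for FLASH over control (background 22.0% and 6.22%, median log2 ratio -1.20 beside -0.19 for all genes) and 4 of 6 compared members lower and 0 higher for CONV over control (background 15.9% and 10.2%, median log2 ratio -1.21 beside -0.08 for all genes). Of 3 members compared between FLASH and CONV, 1 was lower and 0 higher in FLASH (background 12.5% and 4.69%). Ifi27l2a was 0.156 times control in FLASH (95% interval 0.0599 to 0.342) and 0.340 times control in CONV (95% interval 0.193 to 0.574). Isg20 was 0.224 times control in FLASH (95% interval 0.110 to 0.417) and 0.399 times control in CONV (95% interval 0.247 to 0.628) and 0.561 times CONV in FLASH (95% interval 0.260 to 1.14). Ifi35 was 0.384 times control in FLASH (95% interval 0.169 to 0.798) and 0.382 times control in CONV (95% interval 0.184 to 0.745). For Bst2 the levels were 24.8 CPM in FLASH (12 UMIs), 23.7 CPM in CONV (15 UMIs) and 50.6 CPM in control (31 UMIs), 0.491 times control in FLASH (95% interval 0.229 to 0.982) and 0.469 times control in CONV (95% interval 0.235 to 0.895). Single control cells weighed heavily: 38 of the 57 control UMIs of Ifi27l2a, 37 of 68 of Isg20 and 13 of 33 of Ifi35 came from 1 cell each, of 32 control club cells. Without the top cell of each library, Ifi27l2a was 0.339 times control in FLASH and 0.902 in CONV, Isg20 was 0.457 and 0.747, and Ifi35 was 0.532 and 0.535. Without those cells neither Ifi27l2a nor Isg20 was past the fold in CONV.

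Alveolar macrophages had 0 of 3 compared members lower and 1 higher for FLASH over control (background 10.8% and 8.92%, median log2 ratio 0.35 beside -0.03 for all genes) and 0 of 5 compared members lower and 2 higher for CONV over control (background 10.1% and 10.0%, median log2 ratio 0.46 beside -0.01 for all genes). FLASH over CONV gave 3 lower and 0 higher of 6 compared (background 7.27% and 5.65%). Ifitm3 was 2.53 times control in FLASH (95% interval 1.26 to 5.64) and 2.29 times control in CONV (95% interval 1.13 to 5.11). Ifi27l2a was 1.81 times control in CONV (95% interval 0.874 to 4.11) and 0.604 times CONV in FLASH (95% interval 0.326 to 1.09). Trim30a had 40.05 CPM in FLASH (17 UMIs), 67.5 CPM in CONV (31 UMIs) and 49.1 CPM in control (12 UMIs), 0.593 times CONV in FLASH (95% interval 0.308 to 1.11). Ifi35 was 0.649 times CONV in FLASH (95% interval 0.289 to 1.39), and all 3 intervals of FLASH over CONV included 1. Mgp, a stromal transcript, had 398 CPM in FLASH, 434 CPM in CONV and 123 CPM in control in these cells. Non-classical monocytes had 1 of 3 compared members lower and 0 higher for FLASH over control (background 9.52% and 10.8%, median log2 ratio -0.31 beside 0.01 for all genes) and 1 of 5 compared members lower and 0 higher for CONV over control (background 11.9% and 10.8%, median log2 ratio -0.22 beside -0.02 for all genes). Between the irradiated libraries, 1 of 5 was lower and 0 higher in FLASH (background 6.35% and 7.47%). Ifi27l2a was 0.421 times control in FLASH (95% interval 0.313 to 0.566) and 0.398 times control in CONV (95% interval 0.299 to 0.530). For Sp100 the levels were 73.7 CPM in FLASH (11 UMIs), 116 CPM in CONV (21 UMIs) and 125 CPM in control (10 UMIs), 0.633 times CONV in FLASH (95% interval 0.276 to 1.37). Ifi27l2a was the only member past the fold there in the comparisons with control. The dendritic class had 2 of 9 compared members lower and 0 higher for FLASH over control (background 14.1% and 10.7%, median log2 ratio 0.03 beside -0.01 for all genes) and 3 of 9 compared members lower and 0 higher for CONV over control (background 11.9% and 11.9%, median log2 ratio 0.20 beside 0.03 for all genes). Of 6 members compared between FLASH and CONV, 0 were lower and 0 higher in FLASH (background 10.6% and 9.26%). Irf7 had 18.1 CPM in FLASH (2 UMIs), 43.04 CPM in CONV (9 UMIs) and 96.1 CPM in control (30 UMIs), 0.189 times control in FLASH (95% interval 0.0219 to 0.744) and 0.448 times control in CONV (95% interval 0.187 to 0.968). Phf11b stood at 81.6 CPM in FLASH (9 UMIs), 76.5 CPM in CONV (16 UMIs) and 141 CPM in control (44 UMIs), 0.579 times control in FLASH (95% interval 0.249 to 1.20) and 0.543 times control in CONV (95% interval 0.286 to 0.982). Ifi35 was 0.613 times control in CONV (95% interval 0.320 to 1.12). Irf7 in FLASH rested on 2 UMIs, and its ratio to control lay between 0.119 without the top cell of each library and 0.344 at a Leiden resolution of 1.6. Outside the cells with plasmacytoid markers Irf7 had 20.2 CPM in FLASH, 36.6 CPM in CONV and 59.8 CPM in control, the same order. This rested on 2, 7 and 17 UMIs in FLASH, CONV and control, too few for a call. The cells with those markers held 0, 2 and 13 Irf7 UMIs in the same libraries.

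**Figure D4:**
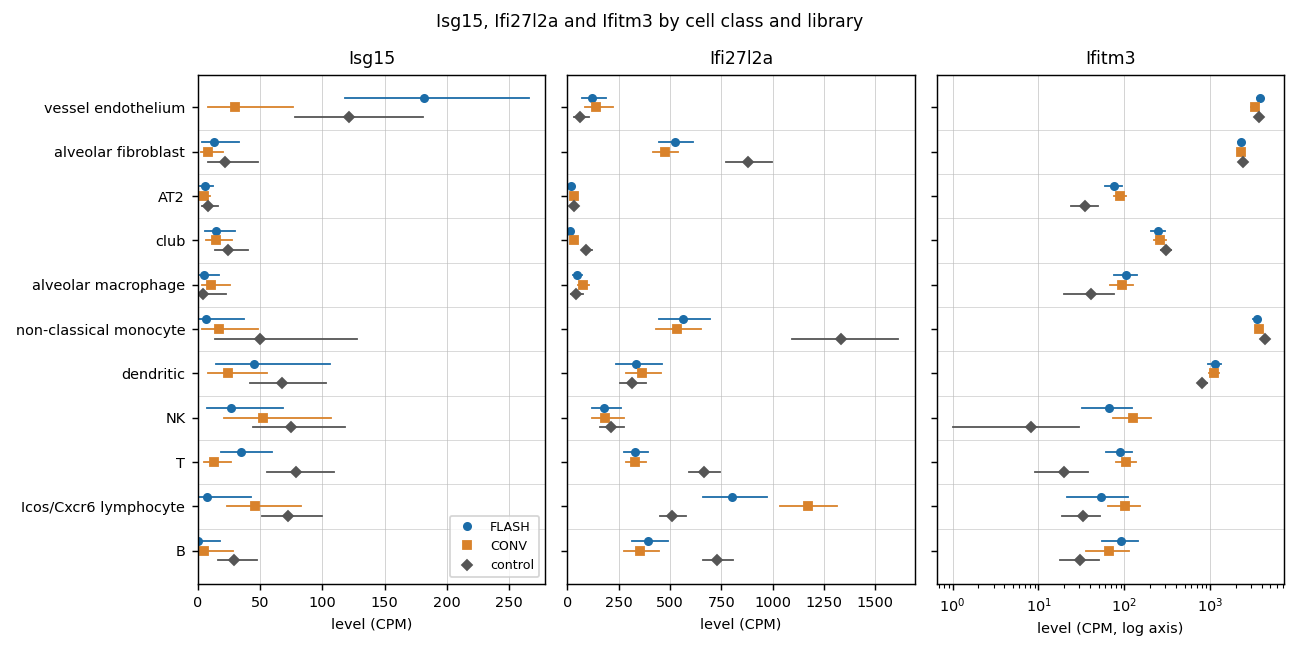
Level (CPM) of Isg15, Ifi27l2a and Ifitm3 in 11 cell classes, with a log axis for Ifitm3. Points are single libraries (FLASH, CONV, control) and lines are exact 95% Poisson intervals; Ifi27l2a is highest in control in non-classical monocytes (1335 CPM) and lowest in control in the Icos/Cxcr6 class (511 CPM), and Ifitm3 lies lowest in control in the 6 classes with little of it.

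Low-basal UMIs were also counted cell by cell. Each cell was thinned to 1000 UMIs so that the deeper control cells had no advantage, and cells with at least 3 low-basal UMIs were counted, with exact Clopper-Pearson intervals. Shallower cells were left out, 9 of them in FLASH and 0 in CONV and in control. Over the 11 classes they were 26 of 1525 cells in FLASH (1.70%, 95% interval 1.12 to 2.49%), 22 of 1612 cells in CONV (1.36%, 95% interval 0.857 to 2.06%) and 63 of 1160 cells in control (5.43%, 95% interval 4.20 to 6.90%). Control had the larger pooled share, and FLASH and CONV overlapped. The libraries differed in class makeup: AT2 cells, with almost no such cells, numbered 331 in FLASH, 404 in CONV and 135 in control. The part of this makeup in the pooled shares was not tested. Without thinning the shares were 4.63% in FLASH, 6.58% in CONV and 21.0% in control. In vessel endothelium they were 10 of 82 cells in FLASH (12.2%, 95% interval 6.01 to 21.3%), 5 of 58 cells in CONV (8.62%, 95% interval 2.86 to 18.98%) and 16 of 73 cells in control (21.9%, 95% interval 13.1 to 33.1%), with intervals that overlap between libraries. In T cells they were 3 of 255 cells in FLASH (1.18%, 95% interval 0.243 to 3.40%), 3 of 295 cells in CONV (1.02%, 95% interval 0.210 to 2.94%) and 9 of 178 cells in control (5.06%, 95% interval 2.34 to 9.38%). In the dendritic class they were 2 of 39 cells in FLASH (5.13%, 95% interval 0.627 to 17.3%), 2 of 52 cells in CONV (3.85%, 95% interval 0.469 to 13.2%) and 7 of 52 cells in control (13.5%, 95% interval 5.59 to 25.8%). B cells had no such cell in FLASH or CONV, where the Clopper-Pearson interval of 0 of 133 cells reached 2.74% and that of 0 of 95 cells 3.81%, while 3 counts of the total give 2.26% and 3.16%, and 7 of 230 in control (3.04%). AT2 cells, as a background for stray UMIs, had 1 of 331 in FLASH (0.302%), 0 of 404 in CONV and 0 of 135 in control. Medians were 3197 UMIs in FLASH, 3863 in CONV and 6466 in control before thinning.

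**Figure D5:**
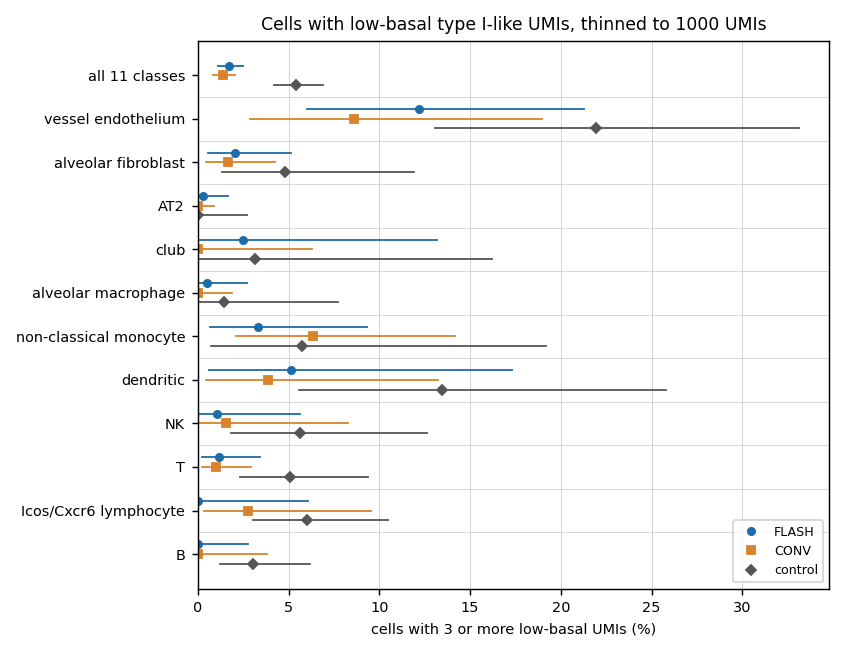
Share of cells (%) with at least 3 low-basal type I-like UMIs after thinning each cell to 1000 UMIs, by class and over the 11 classes. Points are single libraries (FLASH, CONV, control) and lines are exact 95% Clopper-Pearson intervals; over the 11 classes the share is 1.70% in FLASH, 1.36% in CONV and 5.43% in control.

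A few cells carried many low-basal UMIs without thinning. Cells with at least 10 numbered 19 of 2252 in FLASH, 14 of 2385 in CONV and 56 of 1704 in control. They held 245 of 2181 low-basal UMIs in FLASH, 292 of 2739 in CONV and 991 of 3305 in control. In a median such cell, 6 of the 24 genes were detected in FLASH, 8 in CONV and 8 in control, so the UMIs were spread over several genes of the group. The fullest endothelial cell was in FLASH, with 31 UMIs of 12 genes, led by Xaf1 with 6, Isg15 with 5 and Ifit3 with 5. The fullest T cell was in control, with 31 UMIs of 17 genes, led by Rtp4 with 4. In the dendritic class the fullest cell was in control, with 40 UMIs of 19 genes.

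Classes with fewer than 30 cells in a library were not compared. Of 12 such classes with cells in every library, control had the highest low-basal sum in 10, an unnamed class with 2 control cells among them. Both intervals of the ratio to control lay below 1 in classical monocytes, neutrophils and ciliated cells alone. Classical monocytes, the circulating inflammatory monocytes, had 1378 CPM in FLASH, 1136 CPM in CONV and 2857 CPM in control, from 127, 144 and 27 cells. Of the 307 control UMIs, 90 came from 1 cell with 18 genes detected. Neutrophils had 879 CPM in FLASH, 557 CPM in CONV and 1926 CPM in control, from 23, 23 and 13 cells. Ciliated cells had 907 CPM in FLASH, 804 CPM in CONV and 1685 CPM in control, from 91, 98 and 20 cells, and 119 of the 226 control UMIs came from 1 cell. Mesothelium differed from these, with 899.5 CPM in FLASH (37 UMIs), 489 CPM in CONV (40 UMIs) and 893 CPM in control (74 UMIs) and FLASH over control at 1.01 (95% interval 0.659 to 1.51), from 17, 19 and 16 cells. Lymphatic endothelium, with no cell in control, had 919.5 CPM in FLASH (24 UMIs) and 449 CPM in CONV (27 UMIs). In the fullest control ciliated cell Isg15 had 31 UMIs, Ifit3 21 and Ifit1 15. The lists of thymocyte-like and dividing cells were met in control alone, by 99 and 221 cells, and their low-basal sums were 183 CPM and 118 CPM.

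Ligands, receptors, signal carriers and other targets of the pathway were 47 further genes, also chosen with earlier results of these data known. Over the compared classes they gave 44 of 165 pairs lower and 7 higher for FLASH over control (26.7% and 4.24%, background 15.1% and 9.14%). They gave 36 of 181 pairs lower and 8 higher for CONV over control (19.9% and 4.42%, background 13.5% and 10.9%). For FLASH over CONV they gave 13 of 152 pairs lower and 12 higher (8.55% and 7.89%, background 8.02% and 6.18%). Ifnb1, the interferon-beta gene, had 0 UMIs in all 3 libraries, which allowed up to 0.577 CPM of all kept cells in FLASH, 0.423 CPM in CONV and 0.438 CPM in control. Ifng, the interferon-gamma gene, had 2.89 CPM in FLASH (15 UMIs), 1.69 CPM in CONV (12 UMIs) and 6.71 CPM in control (46 UMIs) over all kept cells. NK cells had 79.9 CPM in FLASH (12 UMIs), 29.7 CPM in CONV (4 UMIs) and 182 CPM in control (44 UMIs), 0.439 times control in FLASH (95% interval 0.211 to 0.845) and 0.163 times control in CONV (95% interval 0.0425 to 0.448). Both intervals lay below 1, but 19 of the 44 control UMIs of Ifng in NK cells came from 1 cell. The intervals of the gamma-like sum of NK cells included 1. The receptor gene Ifnar1 had 90.7 CPM in FLASH, 113 CPM in CONV and 140.0 CPM in control in T cells, and 72.1 CPM in FLASH, 91.99 CPM in CONV and 113 CPM in control in B cells. In T cells it was 0.648 times control in FLASH (95% interval 0.414 to 0.996) and 0.804 times control in CONV (95% interval 0.558 to 1.16). Ifngr1 was highest in alveolar fibroblasts, at 1182 CPM in FLASH, 1139 CPM in CONV and 1182 CPM in control, with no difference past counting error, and had 230.2 CPM in FLASH, 276 CPM in CONV and 314 CPM in control in vessel endothelium. Irf1, the gamma-induced factor, had 97.7 CPM in FLASH, 119 CPM in CONV and 202 CPM in control in vessel endothelium, 0.482 times control in FLASH (95% interval 0.242 to 0.906) and 0.589 times control in CONV (95% interval 0.308 to 1.08). The order of Irf1 in endothelium was that of the gamma-like sum. In T cells Irf1 was 71.99 CPM in FLASH, 72.6 CPM in CONV and 74.4 CPM in control, level across libraries.

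The pathway genes with the clearest ratios to control lay mostly in club cells. Cxcl10, a chemokine that draws T cells, had 4.14 CPM in FLASH (2 UMIs), 3.16 CPM in CONV (2 UMIs) and 53.9 CPM in control (33 UMIs), 0.0768 times control in FLASH (95% interval 0.00893 to 0.3003) and 0.0587 times control in CONV (95% interval 0.00683 to 0.230). The immunoproteasome gene Psmb10 had 20.7 CPM in FLASH (10 UMIs), 28.5 CPM in CONV (18 UMIs) and 163 CPM in control (100 UMIs), 0.127 times control in FLASH (95% interval 0.0590 to 0.243) and 0.174 times control in CONV (95% interval 0.0993 to 0.290). B2m, the light chain of class I molecules, had 207 CPM in FLASH (100 UMIs), 210.3 CPM in CONV (133 UMIs) and 765 CPM in control (469 UMIs), 0.270 times control in FLASH (95% interval 0.216 to 0.336) and 0.275 times control in CONV (95% interval 0.225 to 0.334). Of the control UMIs, 28 of 33 for Cxcl10, 69 of 100 for Psmb10 and 157 of 469 for B2m came from 1 cell each. Without the top cell of each library B2m was 0.366 times control in FLASH and 0.383 in CONV, Psmb10 was 0.374 and 0.489, and Cxcl10 had 0, 0 and 5 UMIs in FLASH, CONV and control. In the Icos/Cxcr6 class Ifngr2, the second chain of the gamma receptor, was 0.151 times control in FLASH (95% interval 0.0483 to 0.362), and the inhibitor Socs1 was 0.225 times control in CONV (95% interval 0.125 to 0.376). Between the irradiated libraries Socs3, another inhibitor, was highest in FLASH: it had 91.01 CPM in FLASH (44 UMIs), 18.97 CPM in CONV (12 UMIs) and 55.5 CPM in control (34 UMIs) in club cells and was 4.80 times CONV in FLASH (95% interval 2.49 to 9.98). In AT2 cells it had 138 CPM in FLASH, 72.4 CPM in CONV and 101 CPM in control, and in the dendritic class 372 CPM in FLASH, 163 CPM in CONV and 128 CPM in control. Irf8, a factor of myeloid cells, had 919 CPM in FLASH (138 UMIs), 489.9 CPM in CONV (66 UMIs) and 1023 CPM in control (247 UMIs) in NK cells and was 1.88 times CONV in FLASH (95% interval 1.39 to 2.55).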

How the data were processed

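The samples were 3 lung libraries, 1 per group, placed by their labels. The deposited files hold UMI counts per gene and cell barcode, made with Cell Ranger 2.0 on mm10 per the submitters' processing notes; which filters the authors applied is not given in the sources used here. Barcodes with under 200 genes (50), over 10% mitochondrial UMIs (154) or the highest Scrublet scores at a rate of 0.8% per 1000 barcodes (117) were removed. Scrublet's own cutoff marked 44.

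Counts were scaled to 10000 per cell and log-transformed. With the 37 genes left out, 2000 variable genes, 30 components, 15 neighbours and Leiden resolution 1 gave the clusters (scanpy 1.11.5, igraph 0.11.9, scipy 1.17.1, Python 3.11.15). A cluster took the name of the list of markers (of 30 lists) with the highest mean fold over other cells, where at least 3 of them were in at least 10% of its cells at 2 times the other cells' level (10 CPM added to both) and at least 1 was among its top 10 genes by fold. UMIs were summed per class and library, levels have exact Poisson intervals, and ratios have exact conditional intervals at 95%. A 1.5-fold ratio with at least 30 UMIs over both libraries was called. The contrast step was tested on simulated data. A level of 0 was taken to allow 3 UMIs.

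No p-value was computed, since there is 1 library per group. The members, marker lists and pathway genes were chosen with earlier results of these data known. In each class and comparison, up to 4 called members per direction were named, ranked by the interval bound nearest to 1; the 3 members of each group with the most UMIs were given in every class, and every member in its highest class. The 4 pathway genes with the clearest ratios in each comparison were named, with Irf1, Ifnar1, Ifngr1, Ifnb1 and Ifng; 1 further gene that this rule names is not reported here. Alternatives were other scalings of the class sums, mitochondrial limits, doublet removal, Leiden resolutions, UMI limits, folds, equal weight per cell and members allowed in clustering. Leaving out the top cell of each library, leaving out the Icos/Cxcr6 class classes of at least 25 cells, and sums of members under other scalings, cell filters and clusterings were alternatives chosen after seeing the data. Promoter sequences come from RefSeq (GRCm38.p6).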

Additional observations from a re-analysis of the deposited data

Results flagged for a closer look

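Ifi27l2a went in opposite directions between classes. In CONV it was 2.29 times control in the Icos/Cxcr6 class and 0.398 times control in non-classical monocytes. In FLASH it was 1.57 times control in the Icos/Cxcr6 class and 0.156 times control in club cells, where the ratio was 0.339 without the top cell of each library. These differences between classes were not tested, and the Icos/Cxcr6 ratios changed direction under other clusterings.

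Ifi47 also had opposite directions: in CONV it was 1.68 times control in the Icos/Cxcr6 class and 0.618 times control in vessel endothelium. The difference was not tested, and both intervals included 1.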

How the results depend on the processing

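Counts of called pairs moved by over 1.5 times under these settings. For FLASH over control, 6 higher became 10 with a mitochondrial limit of 5% or 20%, 15 with at least 15 UMIs and 2 with at least 60, and 34 lower became 68 and 7 at those UMI limits. For CONV over control, 9 higher became 5 with the members allowed in clustering, 16 at 15 UMIs and 3 at 60 UMIs, and 35 lower became 76, 9 and, at a fold of 2, 19. For FLASH over CONV, 2 higher became 0 and 1 at mitochondrial limits of 5% and 20%, 4 at Leiden resolution 0.6, 11 and 0 at 15 and 60 UMIs, 1 at a fold of 2 and 1 without the top cell of each library. The 10 lower became 6 at the 5% limit, 22 and 2 at 15 and 60 UMIs, 0 at a fold of 2 and 5 without the top cells.

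Shares of cells with at least 3 low-basal UMIs were 0.848% in FLASH, 0.682% in CONV and 3.36% in control when thinned to 700 UMIs, and 4.63%, 6.58% and 21.0% in the same libraries without thinning; control was highest in each. Of 1210 recomputed ratios of 82 named ones, 1174 stayed within the main ratio's 95% interval, 25 moved beyond it and 11 changed direction. The 1174 include all values under settings that changed only the UMI limit, the fold or the classes used. Under those settings a ratio cannot move, so they say nothing on its stability. Bst2 in NK cells, CONV over control, became 1.34 at the 5% limit and 1.38 at Leiden resolution 1.6. In the Icos/Cxcr6 class Ifi47 became 0.851 in CONV at the 20% limit. At Leiden resolution 0.6, Isg15 became 3.24 in FLASH and 4.18 in CONV, Rtp4 2.79 in CONV and Ifi35 1.08 in FLASH. At resolution 1.6, Ifi27l2a became 0.775 in FLASH and 0.873 in CONV, and 0.994 in FLASH with the members in clustering. In endothelium it became 0.707 in CONV without the top cell. Club cells gave no value at the 5% limit. With the fold kept, 53 of the 82 named ratios were past it under each of these settings. The other 29 were not past it under at least 1. These counts looked at the ratio alone, so a pair left with too few UMIs for a call still counted. Isg15 in endothelium, FLASH over CONV, was among the 53, although it was no longer called without the top cell of each library. Summed members were recomputed in each class under 8 of these settings, chosen after seeing the data. In the Icos/Cxcr6 class the low-basal sum became 1.16 times control in CONV at resolution 0.6, and the high-basal sum 0.971 in FLASH at the 5% limit and, at resolution 1.6, 0.827 in FLASH and 0.9355 in CONV; no other sum whose interval excluded 1 changed direction. Except where the top cell was left out or the UMI limit or fold was changed, the cause was not tested.

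Depth limits most members: 14 of 37 never reached 30 UMIs. No paired analysis was possible because each group is a single library.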
